A study of Mus musculus with 15 samples.

Results

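The data described here compare heart ventricles of knockout mice taken 10 weeks after tamoxifen (n = 4) with ventricles of the same line taken 2 weeks after tamoxifen (n = 3). These 7 arrays were chosen by their labels out of the 15 arrays of the series, and the other 8 arrays, of flox control hearts at 10 weeks (n = 4) and at 2 weeks (n = 4), serve for comparison. All animals were males of the strain given as C57Bl/J6. The knockout line is labelled Acsl1H-/- and loses Acsl1 after tamoxifen, while its control littermates are labelled Acsl1flox/flox. Both lines received tamoxifen at 75 mg/kg on 4 days at an age of 6 to 8 weeks, so the later hearts also came from older mice, and time after deletion and age cannot be told apart within the knockout line. Since no group carried the inducible recombinase without the deletion, effects of the recombinase and of the deletion cannot be told apart either.

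Acsl1 is the main long-chain acyl-CoA synthetase of heart muscle. It couples fatty acids to coenzyme A, and the acyl-CoA then enters the mitochondria for oxidation or is built into complex lipids. A heart that cannot activate fatty acids turns to glucose and amino acids, and acyl-CoA and fatty acids also act on the PPAR receptors, which control the genes of fatty acid oxidation. Stress of mitochondria or a shortage of amino acids raises the transcription factor ATF4, which drives genes of amino acid synthesis and uptake and of folate-dependent one-carbon metabolism.

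Each array measured heart RNA against a whole mouse reference RNA in 2 colours. The deposited values are log2 ratios of heart over reference in which every probe had been centred on a median of 0 over the 15 arrays. They therefore give differences between arrays and no level of a gene, and the tissue label could not be checked by marker levels. The direction of the ratio is likely from the dyes the labels name, but it is not stated, and neither is the log base, which is taken here as 2 for every fold. With the opposite direction every rise below would be a fall. Array medians lay between -0.0196 and 0.0342 over genes, and array SDs between 0.384 and 0.484. Acsl1 was not analysed here, so the labels were not checked on the deleted gene, but 2 of the 93 control spots separated the lines. AT_nX_3 read 7.60 to 8.40 on the 7 knockout arrays and at most 0 on the 8 flox control arrays. The ventricles are mixed tissue, so fewer cells of a type and less RNA per cell cannot be told apart in any result below.

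The sequences shown here are promoters of genes that rose, from a list of amino acid and one-carbon genes drawn up around ATF4 and mTORC1. Of the 6 called genes of that group, 5 have a RefSeq promoter window, and 2 of these, Chac1 and Fgf21, hold the ATF4 element TGATGCAA. The 3 promoters below are from RefSeq, build GRCm38.p6, and each runs on the gene's strand over 250 bases before and 50 bases after its start. Capitals mark the element, and windows without a match are not shown. Asns matched only the looser form described below. The Chac1 window is chr2:119350992-119351291 on the plus strand, and its element lies 193 to 186 bases before the start on the opposite strand. The Fgf21 window is chr7:45615441-45615740 on the minus strand, with its element 139 to 132 bases before the start, also on the opposite strand. The Asns window is chr6:7693160-7693459 on the minus strand, and it holds the related letters TGATGAAA, 23 to 16 bases before the start.
Chac1: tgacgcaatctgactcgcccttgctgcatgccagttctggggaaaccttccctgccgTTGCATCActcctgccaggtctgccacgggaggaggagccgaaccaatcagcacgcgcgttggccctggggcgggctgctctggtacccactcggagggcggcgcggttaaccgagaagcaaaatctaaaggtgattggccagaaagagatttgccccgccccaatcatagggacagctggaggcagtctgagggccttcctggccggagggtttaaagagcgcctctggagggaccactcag
Fgf21: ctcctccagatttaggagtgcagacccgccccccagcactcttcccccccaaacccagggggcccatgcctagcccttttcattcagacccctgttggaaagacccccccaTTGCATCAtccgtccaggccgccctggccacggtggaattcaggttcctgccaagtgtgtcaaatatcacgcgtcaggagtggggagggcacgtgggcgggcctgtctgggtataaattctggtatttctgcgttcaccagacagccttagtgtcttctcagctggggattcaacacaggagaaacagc
Asns: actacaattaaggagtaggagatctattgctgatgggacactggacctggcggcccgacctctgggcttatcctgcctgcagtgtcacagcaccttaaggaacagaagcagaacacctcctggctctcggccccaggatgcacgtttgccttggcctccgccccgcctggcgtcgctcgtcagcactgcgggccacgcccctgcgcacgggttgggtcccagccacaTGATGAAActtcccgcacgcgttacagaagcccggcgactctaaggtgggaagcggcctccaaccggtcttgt
The element TGATGCAA, searched on both strands, was in the windows of 138 of 15594 tested genes, or 0.885%, and in those of 3 of 67 called genes, which were Chac1, Fgf21 and Plekhh3. Chac1 and Fgf21 rose, while Plekhh3 fell. TGATGNAA, a looser form searched after the values were seen, was in 574 of the same 15594 genes, or 3.68%, and in 7 of the 67 called genes. Of these, Asns, Chac1, Fabp3 and Fgf21 rose, while Emilin2, Plekhh3 and a gene with a clone name fell. TGACNNNGC, the core of the antioxidant response element, was in 2416 tested genes (15.5%) and 13 called genes. The E-box CACGTG was in 1502 tested genes (9.63%) and 6 called genes. A direct repeat of AGGTCA with 1 base between the copies, the form that PPAR and RXR bind, was in 10 tested genes and in 0 of the 67 called genes. A match is a run of letters in a window, and the data hold no binding.

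Between 2 and 10 weeks the knockout hearts gained RNA of 6 genes from the amino acid and one-carbon list. They also gained RNA of the glutathione transferases Gsta1 and Gsta2, of Nmrk2, an NAD salvage kinase, and of Srebf1 and Fabp3. They lost RNA of Ccn2, Emilin2, Mxra8, Smim5 and Tbxa2r, a thromboxane receptor. Of 19532 genes, 76 were called at an adjusted p under 0.05 (0.389%). Among them 45 were higher at 10 weeks (0.230%) and 31 were lower (0.159%). Without adjustment, 1014 genes were higher at p under 0.05 (5.19%) and 1171 were lower (6.00%). Of all genes, 49.0% lay above 0 in knockouts. These shares over all genes are the background for the list counts below. The groups of arrays did not overlap for any called gene, and over all genes the 4 arrays of 10 weeks lay above all 3 arrays of 2 weeks for 1128 genes (5.78%) and below them for 1497 (7.66%). At least 2-fold differences were seen for 41 of the 76. The labels call the arrays of a group biological replicates. The p-values set each difference against a spread between arrays that was pooled over all 4 groups, flox controls included. With the knockout arrays fitted alone, 12 genes were called.

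The flox controls over the same interval gave 0 called genes (0%) with limma, with 815 at an unadjusted p under 0.05 (4.17% of all genes). For the difference between the time effects of the 2 lines, 0 genes were called (0%), with 1331 of the 19532 genes at an unadjusted p under 0.05. Its lowest adjusted p was 0.0901. Of the 76 called genes, 72 had an unadjusted p under 0.05 for that difference. In flox controls 58 of the 76 had the same sign as in knockouts, against 50.8% of all genes, and 19 had an unadjusted p under 0.05 there. The median change of the 45 higher genes was 0.98 in knockouts and 0.13 in flox controls on the log2 scale, and that of the 31 lower genes was -1.12 in knockouts and -0.15 in flox controls. These 76 genes were chosen on the knockout contrast, and the same knockout arrays enter the difference between the lines. The count of 72 and the larger size in knockouts are therefore descriptions and no test of a difference between the lines. Over all genes the median difference was -0.007 in knockouts and -0.017 in flox controls.

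**Figure D1:**
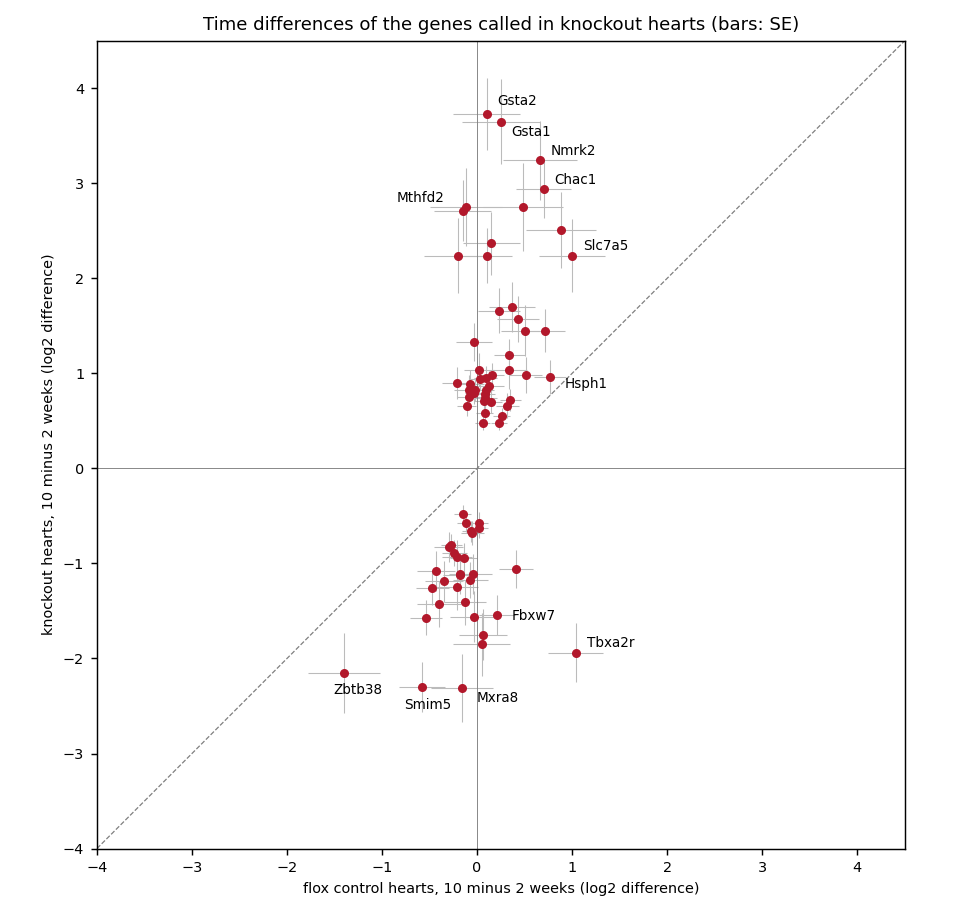
Log2 differences of 10 minus 2 weeks for the 76 called genes, in knockout hearts (vertical axis) against flox control hearts (horizontal axis), with standard errors as bars; the dashed line marks equal change in both lines. Gsta2 and Gsta1 stand highest, Hsph1 lies close to the dashed line, and Tbxa2r lies below 0 in knockouts and above 0 in flox controls.

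The list of amino acid and one-carbon genes, drawn up around ATF4 and mTORC1, held 6 called rises among 38 measured members and 0 called falls, the highest count of the 34 gene lists. Over all genes, 0.230% were called higher and 0.159% lower. The members were chosen with earlier results of these data known, so the count is a description and no test. Neither ATF4 activity nor its binding was measured. Chac1, a glutathione-degrading enzyme that is a classical ATF4 pathway target, read 1.90, 2.10, 1.43 and 1.97 on the arrays of 10-week knockouts and -1.20, -1.07 and -1.02 on those of 2-week knockouts. Every 10-week array lay more than 2 log2 units above every 2-week array. The difference was 2.94 ± 0.31 (SE, adjusted p = 0.00286), or 7.69-fold. Asns, asparagine synthetase, read 2.06, 2.72, 1.68 and 2.33 in the 10-week knockouts, against 0.06, -0.46 and -0.12 in the 2-week knockouts, and differed by 2.37 ± 0.33 (SE, adjusted p = 0.00812). Mthfd2, the mitochondrial folate enzyme that supplies one-carbon units, read 2.87, 4.07, 2.24 and 3.61 on the arrays of 10-week knockouts and 0.91, 0.92 and -0.48 on those of 2-week knockouts. Its 10-week arrays spanned nearly 2 log2 units, and the lowest of them was still above all 2-week arrays. Mthfd2 differed by 2.75 ± 0.41 (SE, adjusted p = 0.0107).

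The hormone Fgf21, which muscle and liver secrete under metabolic stress, read 1.86, 2.00, 2.80 and 2.77 in the 10-week knockouts, against 0.01, 0.41 and -0.07 in the 2-week knockouts. Its difference was 2.24 ± 0.29 (SE, adjusted p = 0.00564), and the gene's 2 probes gave 0.73 and 3.75. With the more variable probe alone, the difference between the lines was 3.81. That probe was picked by its spread over the arrays, which includes the rise itself, so its p-value is no fair test. With all probes tested singly and none picked, Fgf21 passed the test for the difference between the lines with 1 probe (adjusted p = 1.1e-05). With its 2 probes averaged it did not pass (adjusted p = 0.166). Slc7a5, the light chain of a transporter of large neutral amino acids, read 1.59, 1.42, 1.75 and 1.34 on the arrays of 10-week knockouts and 0.46, -1.50 and -1.10 on those of 2-week knockouts. Replicate 1 of the 2-week knockouts stood well above the other two, and the difference was 2.24 ± 0.38 (SE, adjusted p = 0.0224). Atf5, a transcription factor of the mitochondrial stress response, read 1.12, 1.51, 0.83 and 1.24 in the 10-week knockouts, against 0.03, 0.00 and 0.38 in the 2-week knockouts, with a difference of 1.04 ± 0.17 (SE, adjusted p = 0.022). In flox controls the differences over the same interval were 0.70 for Chac1, 0.15 for Asns, -0.12 for Mthfd2, 0.10 for Fgf21, 1.00 for Slc7a5 and 0.02 for Atf5 on the log2 scale. The difference between the lines had an adjusted p of 0.174 for Chac1, 0.224 for Asns, 0.181 for Mthfd2, 0.166 for Fgf21, 0.695 for Slc7a5 and 0.378 for Atf5.

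Across the whole amino acid and one-carbon list, 25 of 38 genes lay above 0 in knockouts, against 49.0% of all genes. At an unadjusted p under 0.05, 12 were higher and 2 lower, against 5.19% and 6.00% of all genes. The list's median difference was 0.19. In flox controls the median was -0.08. The list's mean per array was 0.43, 0.69, 0.37 and 0.42 on the arrays of 10-week knockouts and -0.18, 0.15 and -0.13 on those of 2-week knockouts. Aminoacyl-tRNA synthetases of the cytosol, which load amino acids onto tRNAs and include further ATF4 targets, had the highest median of the 34 gene lists at 0.34, against -0.08 in flox controls. None of the 19 measured was called with limma, while 7 were higher and 0 lower at an unadjusted p under 0.05. The synthetase mean per array was 0.04, 0.31, 0.38 and 0.27 in the 10-week knockouts, against -0.17, 0.09 and -0.05 in the 2-week knockouts. The times overlapped, since replicate 1 of the 10-week knockouts lay below replicate 2 of the 2-week knockouts. Sars differed by 0.46 ± 0.10 (SE, adjusted p = 0.0682), Nars by 0.44 ± 0.11 (SE, adjusted p = 0.135), Lars by 0.44 ± 0.13 (SE, adjusted p = 0.184) and Iars by 0.59 ± 0.14 (SE, adjusted p = 0.105). Atf3, another stress-induced transcription factor, read 0.89, 1.83, 1.14 and 2.01 on the arrays of 10-week knockouts and -2.03, 0.30 and 0.00 on those of 2-week knockouts. Replicate 1 of the 2-week knockouts lay far below the other arrays, and the difference of 2.04 ± 0.56 (SE, adjusted p = 0.163) did not pass the test.

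**Figure D2:**
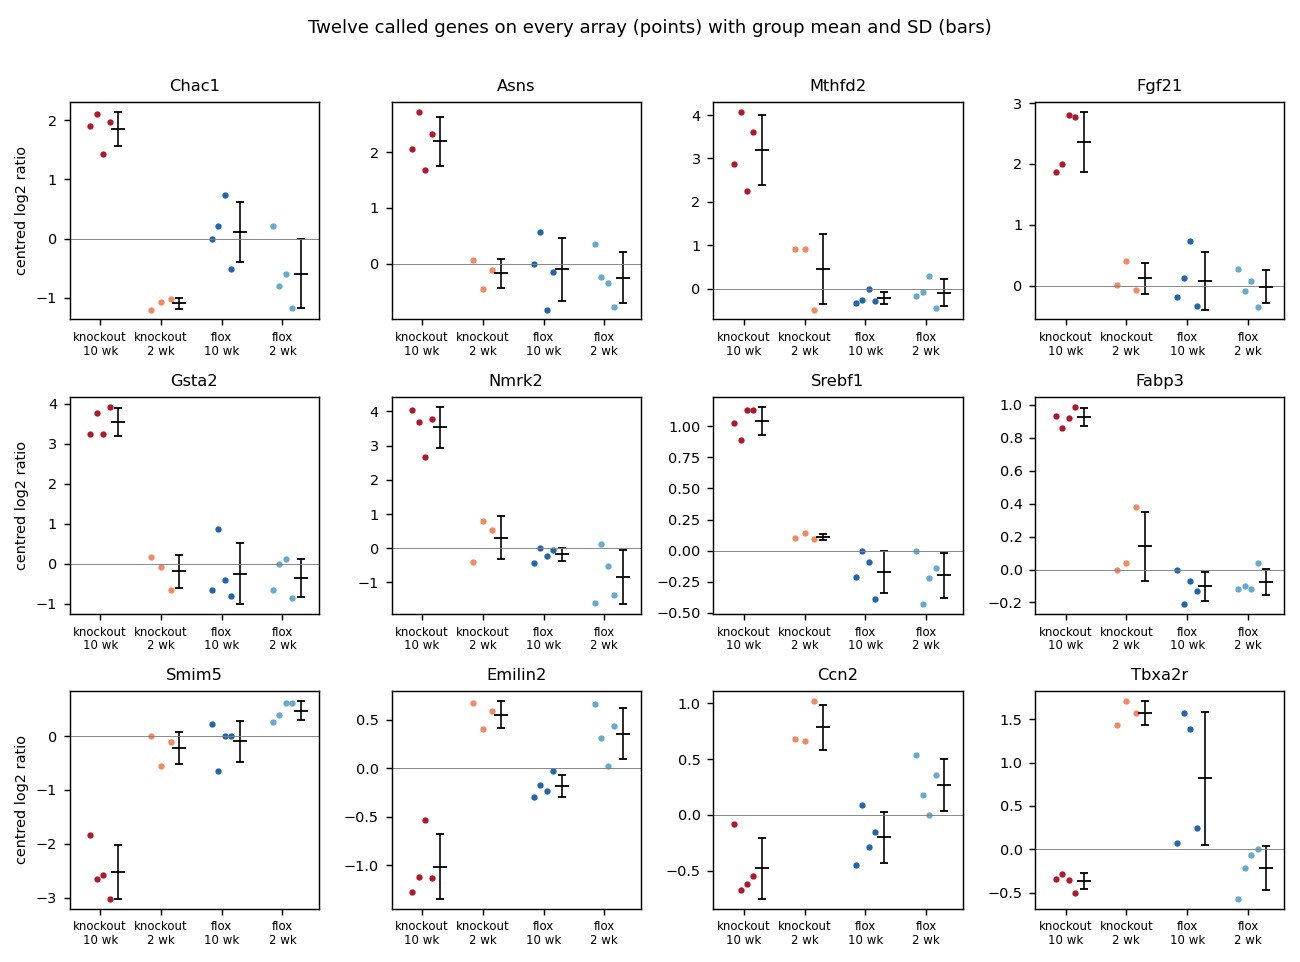
Centred log2 ratios of 12 called genes on each of the 15 arrays (points), with the mean and SD of each group as bars, for knockouts at 10 and 2 weeks and flox controls at 10 and 2 weeks; vertical scales differ between panels. In the first 8 panels the 10-week knockouts lie above every other array, and in the Smim5, Emilin2 and Ccn2 panels they lie below the 2-week knockouts without overlap.

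Glutathione transferases gave the largest rises of all. Gsta2 read 3.25, 3.77, 3.25 and 3.93 in the 10-week knockouts, against 0.17, -0.08 and -0.65 in the 2-week knockouts, and differed by 3.73 ± 0.38 (SE, adjusted p = 0.00286), or 13.3-fold. Gsta1 read 3.26, 3.99, 2.95 and 3.82 on the arrays of 10-week knockouts and 0.00, -0.44 and 0.02 on those of 2-week knockouts, and differed by 3.65 ± 0.45 (SE, adjusted p = 0.00429). These genes are near-identical copies whose probes may share RNA, so their rises may not be separate measurements. In flox controls Gsta2 averaged -0.24 ± 0.76 at 10 weeks and -0.35 ± 0.48 at 2 weeks (SD, n = 4 each). The difference between the lines for Gsta2 was 3.63 ± 0.52 (SE, adjusted p = 0.0901). Of 42 measured glutathione and NRF2 antioxidant genes, these 2 were called, against 0.230% of all genes called higher. At an unadjusted p under 0.05, 16 were higher and 1 was lower, against 5.19% and 6.00% of all genes. The list's median was 0.23, against 0.05 in flox controls. Nqo1, a quinone reductase, differed by 1.16 ± 0.25 (SE, adjusted p = 0.0734) and Gpx4, which reduces lipid hydroperoxides, by 0.43 ± 0.09 (SE, adjusted p = 0.0577). Hagh, which cleaves lactoylglutathione in the removal of methylglyoxal, was outside the list and read 0.57, 0.59, 0.51 and 0.67 in the 10-week knockouts, against -0.15, -0.20 and -0.01 in the 2-week knockouts. It rose by 0.71 ± 0.10 (SE, adjusted p = 0.0107).

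The called rises include 6 genes of lipid handling, which come from several lists, and Dbi and Lpcat3 among them were in no list. Srebf1, which drives transcription of lipogenic enzymes, read 1.03, 0.89, 1.13 and 1.13 on the arrays of 10-week knockouts and 0.10, 0.14 and 0.09 on those of 2-week knockouts, and rose by 0.94 ± 0.12 (SE, adjusted p = 0.00564). Its arrays lay close together within each group and far apart between them. Fabp3, which carries fatty acids in the cytosol of heart muscle, read 0.93, 0.86, 0.92 and 0.99 in the 10-week knockouts, against 0.00, 0.04 and 0.38 in the 2-week knockouts, and rose by 0.79 ± 0.11 (SE, adjusted p = 0.00692). Acot2, which releases fatty acids from acyl-CoA in mitochondria, read 1.61, 1.75, 1.32 and 1.51 on the arrays of 10-week knockouts and 0.11, 0.55 and 0.00 on those of 2-week knockouts, and rose by 1.33 ± 0.20 (SE, adjusted p = 0.0133). Pex11a, a PPAR target that drives division of peroxisomes, rose by 0.48 ± 0.08 (SE, adjusted p = 0.023). Dbi, which binds acyl-CoA in the cytosol, rose by 0.66 ± 0.11 (SE, adjusted p = 0.0187), and Lpcat3, which puts polyunsaturated chains into phospholipids, by 0.87 ± 0.16 (SE, adjusted p = 0.0408). In flox controls the differences of these 6 genes were between -0.11 (Dbi) and 0.23 (Pex11a).

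The 44 measured genes of fatty acid oxidation and PPAR targets moved mostly one way: 39 lay above 0 in knockouts, against 49.0% of all genes. At an unadjusted p under 0.05, 23 were higher and 0 lower, against 5.19% and 6.00% of all genes. Called higher were 3, namely Acot2, Fabp3 and Pex11a, against 0.230% of all genes. The list's median was 0.26, against -0.03 in flox controls, where 12 of the 44 lay above 0. Its mean per array was 0.27, 0.34, 0.30 and 0.32 in the 10-week knockouts, against -0.04, 0.01 and -0.09 in the 2-week knockouts. Acot1, the cytosolic relative of Acot2 with which it may share signal, differed by 0.80 ± 0.17 (SE, adjusted p = 0.0713). Pdk4, which blocks pyruvate oxidation and is named here after its values were seen, read 1.66, 1.68, 1.44 and 1.59 in the 10-week knockouts, against 0.12, -0.09 and 0.00 in the 2-week knockouts. Its difference was 1.58 ± 0.37 (SE, adjusted p = 0.0961) over 15 arrays, and it was called when the knockout arrays were fitted alone (adjusted p = 0.013). Ppara, the receptor itself, differed by -0.69 ± 0.17 (SE, adjusted p = 0.121), and of the 20 measured receptors and coactivators 0 were called, 0 were higher and 1 was lower at an unadjusted p under 0.05.

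Of the 31 measured genes that SREBP controls in making sterols and fatty acids, Srebf1 was the one called, against 0.230% of all genes called higher. At an unadjusted p under 0.05, 5 were higher and 0 lower, against 5.19% and 6.00% of all genes. The list's median was 0.06, against 0.00 in flox controls. Insig1, the endoplasmic reticulum anchor of SREBP, differed by 0.89 ± 0.21 (SE, adjusted p = 0.0982), with 0.12 and 1.65 from its 2 probes. Scd2, a fatty acid desaturase, differed by 0.81 ± 0.18 (SE, adjusted p = 0.088), and Me1, the malic enzyme that supplies NADPH, by 0.57 ± 0.13 (SE, adjusted p = 0.0845). Triacylglycerol, lipid droplet and sphingolipid genes had a median of 0.00 and no called member among 39, with 7 higher and 1 lower at an unadjusted p under 0.05, among them Agpat3 at 0.33 ± 0.08 (SE, adjusted p = 0.125) and Sptlc3 at -0.56 ± 0.16 (SE, adjusted p = 0.19). The 29 acyl-CoA synthetases and thioesterases had a median of 0.15, with Acot2 as the called member.

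**Figure D3:**
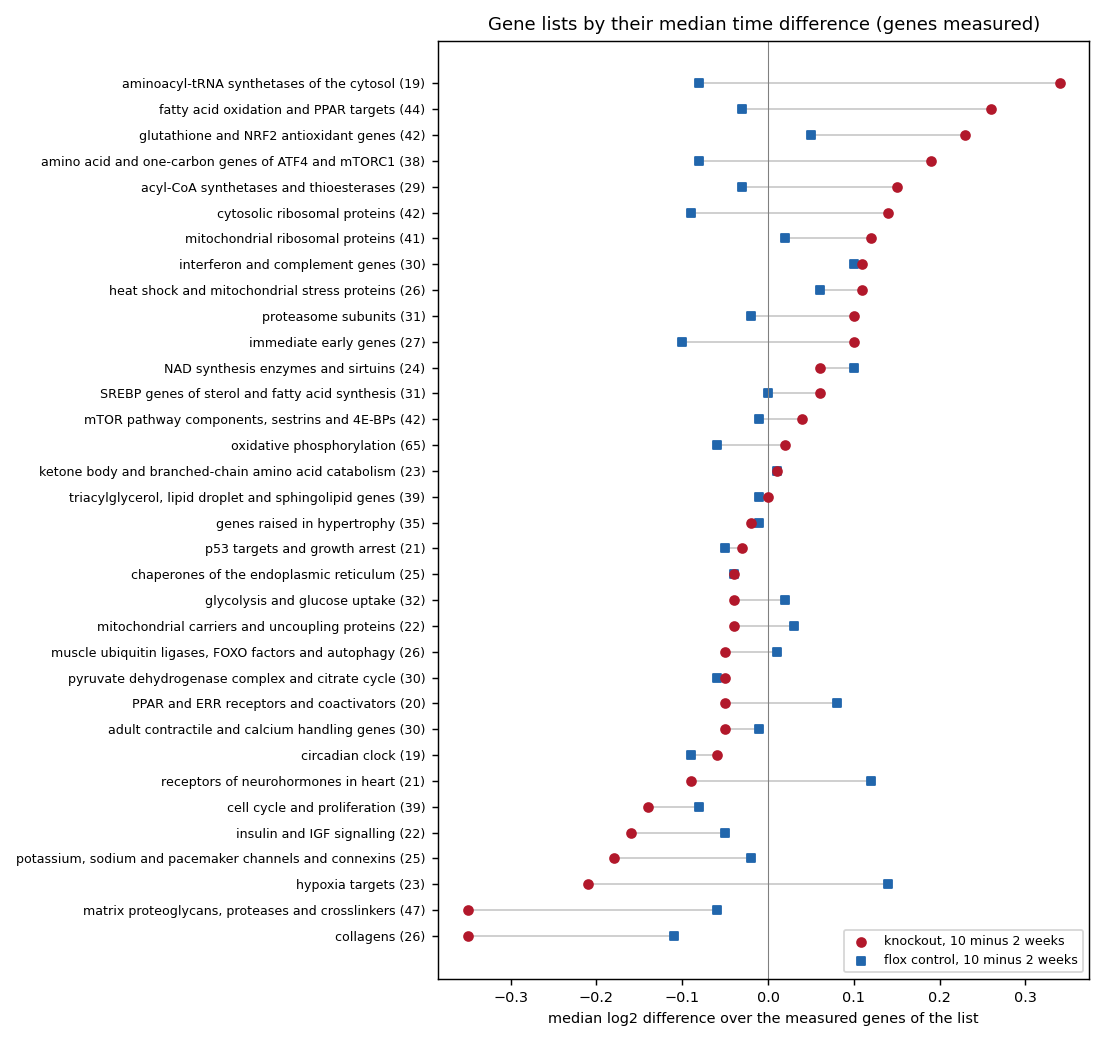
Median log2 difference of 10 minus 2 weeks over the measured genes of each of 34 gene lists, in knockout hearts (circles) and flox control hearts (squares), with the number of genes in parentheses. Aminoacyl-tRNA synthetases lie highest in knockouts at 0.34, and collagens and matrix genes lowest at -0.35.

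Nmrk2, a nicotinamide riboside kinase of muscle that makes NAD from salvage, read 4.03, 3.70, 2.66 and 3.77 on the arrays of 10-week knockouts and -0.41, 0.79 and 0.53 on those of 2-week knockouts. All 10-week arrays lay far above the 2-week arrays. The difference was 3.24 ± 0.42 (SE, adjusted p = 0.00564), or 9.43-fold. In flox controls Nmrk2 averaged -0.18 ± 0.19 at 10 weeks and -0.84 ± 0.79 at 2 weeks (SD, n = 4 each). Of 24 measured NAD synthesis enzymes and sirtuins, Nmrk2 was the one called, and the median was 0.06, against 0.10 in flox controls. Sirt3, the mitochondrial deacetylase, differed by -0.54 ± 0.12 (SE, adjusted p = 0.088). Adssl1, the muscle adenylosuccinate synthetase of the purine nucleotide cycle, read 0.82, 0.88, 0.98 and 0.84 in the 10-week knockouts, against 0.11, 0.08 and 0.00 in the 2-week knockouts, and rose by 0.82 ± 0.09 (SE, adjusted p = 0.00286). Upb1, the last enzyme of pyrimidine breakdown, rose by 2.24 ± 0.39 (SE, adjusted p = 0.0266). Coq7, of ubiquinone synthesis, rose by 0.58 ± 0.10 (SE, adjusted p = 0.0224), and Gbe1, the glycogen branching enzyme, by 0.74 ± 0.14 (SE, adjusted p = 0.0403).

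Glycolysis showed no common direction. Of 32 measured genes, 5 were higher and 6 lower at an unadjusted p under 0.05, and the median was -0.04, against 0.02 in flox controls. Gbe1 was its called member. Ldha, lactate dehydrogenase, differed by -0.51 ± 0.11 (SE, adjusted p = 0.0728), Eno3, the muscle enolase, by -0.37 ± 0.11 (SE, adjusted p = 0.199), and Pgam1, a phosphoglycerate mutase, by -0.63 ± 0.17 (SE, adjusted p = 0.152). Oxidative phosphorylation had a median of 0.02 over 65 genes, with 0 called. At an unadjusted p under 0.05, 3 were higher and 3 lower, against 5.19% and 6.00% of all genes. Cox6a2 differed by 0.39 ± 0.09 (SE, adjusted p = 0.0825) and Cox7a1, another muscle subunit of cytochrome oxidase, by -0.36 ± 0.11 (SE, adjusted p = 0.224). The citrate cycle and pyruvate dehydrogenase list had a median of -0.05 over 30 genes, 0 of them called, with Got2 at -0.38 ± 0.11 (SE, adjusted p = 0.174) and Sucla2 at -0.31 ± 0.10 (SE, adjusted p = 0.252). Among 23 hypoxia targets none was called and the median was -0.21, against 0.14 in flox controls. Without replicate 2 of the 10-week knockouts that median was -0.03, and without replicate 2 of the 2-week knockouts -0.07. Hif1a, their regulator, differed by 0.90 ± 0.18 (SE, adjusted p = 0.0577), and Vegfa by 0.55 ± 0.17 (SE, adjusted p = 0.223).

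Abra, an actin-binding protein of striated muscle, read 1.23, 1.14, 0.87 and 0.92 on the arrays of 10-week knockouts and -0.25, -0.15 and -0.05 on those of 2-week knockouts, and rose by 1.19 ± 0.17 (SE, adjusted p = 0.00952). Trim54, a ubiquitin ligase of the sarcomere, rose by 0.55 ± 0.09 (SE, adjusted p = 0.0225), while its relative Trim63 differed by 0.51 ± 0.14 (SE, adjusted p = 0.184). Differences in flox controls were 0.34 ± 0.16 for Abra, 0.26 ± 0.09 for Trim54 and -0.03 ± 0.13 for Trim63 (SE). Trim54 was the called member among 26 muscle ubiquitin ligases, FOXO factors and autophagy genes, whose median was -0.05. Hspe1, a chaperonin of mitochondria, rose by 0.48 ± 0.08 (SE, adjusted p = 0.0224), and its partner Hspd1 differed by 0.47 ± 0.12 (SE, adjusted p = 0.12). Hsph1, a cytosolic chaperone, rose by 0.96 ± 0.18 (SE, adjusted p = 0.046), and its difference in flox controls was 0.77 ± 0.17 (SE), close to that in knockouts. Of 26 heat shock and mitochondrial stress genes, Hspe1 and Hsph1 were called, against 0.230% of all genes called higher. At an unadjusted p under 0.05, 8 were higher and 2 lower, against 5.19% and 6.00% of all genes. The list's median was 0.11, against 0.06 in flox controls. Dusp27, a catalytically inactive phosphatase of striated muscle, read -1.60, -1.29, -0.64 and -0.81 in the 10-week knockouts, against 0.36, 0.58 and 1.06 in the 2-week knockouts, and fell by 1.75 ± 0.27 (SE, adjusted p = 0.0138).

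Genes that mark hypertrophy did not move together. Of 35 measured, Nmrk2 was called higher and Ccn2 lower, and the median was -0.02, against -0.01 in flox controls. Myh7, the beta myosin heavy chain that is raised in stressed mouse hearts and is named after its values were seen, read 1.85, 1.48, 1.55 and 1.78 on the arrays of 10-week knockouts and 1.40, 1.45 and 1.59 on those of 2-week knockouts. These overlapped between the times, and the difference over time was 0.19 ± 0.31 (SE, adjusted p = 0.86). Myh7 averaged -1.0 ± 0.42 at 10 weeks and -0.98 ± 0.67 at 2 weeks in flox controls (SD, n = 4 each). Nppa, the atrial natriuretic peptide, differed by -0.63 ± 0.30 (SE, adjusted p = 0.464), Enah by 0.45 ± 0.15 (SE, adjusted p = 0.265) and Postn, a matrix protein of activated fibroblasts, by -0.72 ± 0.28 (SE, adjusted p = 0.368). With its more variable probe alone Postn gave 0.02. The 30 adult contractile and calcium handling genes had a median of -0.05 with 0 called, with S100a1 at 0.35 ± 0.12 (SE, adjusted p = 0.293) and Tpm1 at -0.30 ± 0.09 (SE, adjusted p = 0.188).

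Emilin2, Ccn2 and Mxra8, of the matrix and of cells that make it, were among the called falls. Emilin2, a glycoprotein of elastic fibres, read -1.28, -1.12, -0.53 and -1.13 in the 10-week knockouts, against 0.67, 0.40 and 0.59 in the 2-week knockouts, and fell by 1.57 ± 0.18 (SE, adjusted p = 0.00286). Ccn2, connective tissue growth factor, read -0.08, -0.67, -0.62 and -0.55 on the arrays of 10-week knockouts and 0.68, 0.66 and 1.02 on those of 2-week knockouts, and fell by 1.26 ± 0.18 (SE, adjusted p = 0.00993). Mxra8, a membrane protein of fibroblasts and other mesenchymal cells, read -1.70, -1.52, -0.11 and -1.80 in the 10-week knockouts, against 1.15, 0.60 and 1.31 in the 2-week knockouts. Replicate 3 of the 10-week knockouts stood close to the flox control mean of 0.00 at 10 weeks and apart from the other 3, and Mxra8 fell by 2.31 ± 0.36 (SE, adjusted p = 0.0139). In flox controls the differences were -0.54 for Emilin2, -0.47 for Ccn2 and -0.16 for Mxra8.

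Of 47 matrix proteoglycans, proteases and crosslinkers, Ccn2 was the one called, against 0.159% of all genes called lower. At an unadjusted p under 0.05, 0 were higher and 17 lower, against 5.19% and 6.00% of all genes. The list's median was -0.35, against -0.06 in flox controls. Sulf1 and Sulf2, which trim heparan sulfate, differed by -0.73 ± 0.18 (SE, adjusted p = 0.12) and -0.57 ± 0.16 (SE, adjusted p = 0.179), and Mmp2, a gelatinase, by -0.83 ± 0.24 (SE, adjusted p = 0.192). None of the 26 collagens was called with limma, and their median was -0.35, against -0.11 in flox controls. At an unadjusted p under 0.05, 0 collagens were higher and 7 lower, against 5.19% and 6.00% of all genes. Col8a2 differed by -1.72 ± 0.55 (SE, adjusted p = 0.253), Col14a1 by -0.68 ± 0.23 (SE, adjusted p = 0.278), Col8a1 by -0.63 ± 0.23 (SE, adjusted p = 0.333) and Col4a2 by -0.39 ± 0.15 (SE, adjusted p = 0.345). The probes of Col8a1 ran from -1.25 to 0.17 and those of Col14a1 from -1.49 to 0.12. The mean over collagens was 0.12, -0.05, -0.11 and 0.11 on the arrays of 10-week knockouts and 0.05, 0.34 and 0.75 on those of 2-week knockouts. Replicate 3 of the 2-week knockouts stood above the rest, and replicate 1 of that group lay within the range of the 10-week knockouts. The collagen mean was 0.38 in 2-week and 0.02 in 10-week knockouts, against 0.01 and -0.13 in flox controls. For the list of matrix proteoglycans it was 0.42 and -0.01 in knockouts, against -0.06 and -0.04 in flox controls. In both lists the 10-week knockouts lay closer to the flox controls than the 2-week knockouts did.

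Markers of fibroblasts were mostly below 0 over time in both lines. Of 20 markers, 17 lay below 0 in knockouts and 16 in flox controls, and the median was -0.43 in knockouts and -0.20 in flox controls. In knockouts 0 were called, and 0 were higher and 6 lower at an unadjusted p under 0.05, against 5.19% and 6.00% of all genes. The mean of the list was 0.35, 0.06, -0.09 and -0.03 in the 10-week knockouts, against 0.28, 0.54 and 1.01 in the 2-week knockouts. Over the flox controls it ran from -0.58 to -0.02 at 10 weeks and from -0.40 to 0.41 at 2 weeks. Mfap4 differed by -1.36 ± 0.41 (SE, adjusted p = 0.22), Lum by -0.73 ± 0.27 (SE, adjusted p = 0.339) and Htra3 by -0.63 ± 0.19 (SE, adjusted p = 0.225). The part of fibroblast content in the fall of Emilin2, Ccn2, Mxra8 and the collagens was not tested. Endothelial markers had a mean of -0.02 to 0.03 in 10-week knockouts and 0.14 to 0.25 in 2-week knockouts, with 12 of 14 below 0 in knockouts and 9 in flox controls. Their median was -0.08 in knockouts and -0.10 in flox controls, with 0 called and Tek at -0.75 ± 0.23 (SE, adjusted p = 0.22). Smooth muscle and pericyte markers had a mean of -0.34 to 0.06 in 10-week knockouts and 0.08 to 0.11 in 2-week knockouts, with 11 of 13 below 0 in knockouts and 9 in flox controls, 0 called and Mcam at -0.66 ± 0.22 (SE, adjusted p = 0.271).

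**Figure D4:**
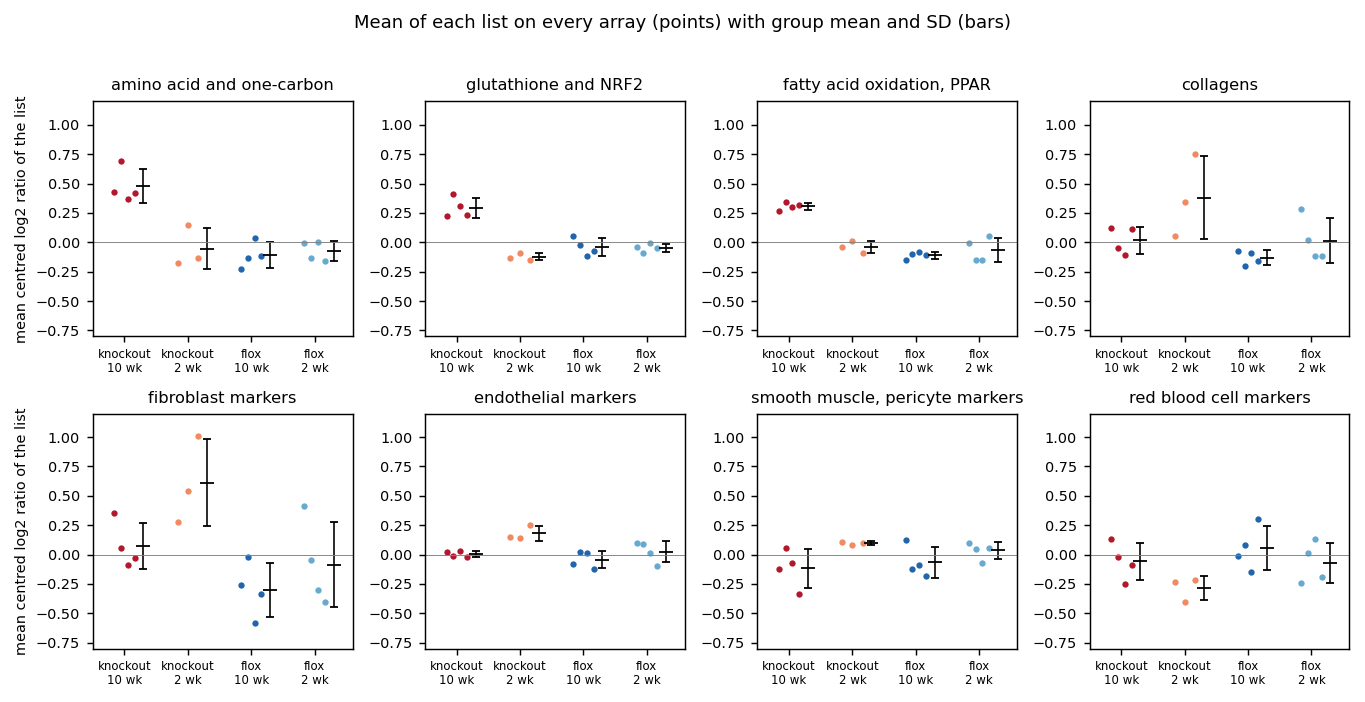
Mean centred log2 ratio of 4 gene lists (upper row) and 4 cell type marker lists (lower row) on each of the 15 arrays (points), with the mean and SD of each group as bars. The fatty acid oxidation list lies at 0.27 to 0.34 on the 10-week knockout arrays and at -0.09 to 0.01 on the 2-week knockout arrays, while the fibroblast list spreads over 0.28 to 1.01 within the 2-week knockouts.

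A globin was among the rises. Hbb-bt, an adult beta globin, read 0.56, 0.15, -0.03 and 0.27 on the arrays of 10-week knockouts and -1.09, -0.55 and -0.59 on those of 2-week knockouts, and rose by 0.98 ± 0.19 (SE, adjusted p = 0.0468). In flox controls it differed by 0.51 ± 0.17 (SE), and the difference between the lines was 0.47 ± 0.26 (SE, adjusted p = 0.764). Of 5 measured red blood cell markers 4 lay above 0 in knockouts and 3 in flox controls, with Hba-a1 at 0.62 ± 0.17 (SE, adjusted p = 0.155) and Alas2, the heme synthesis enzyme of red cells, at 0.61 ± 0.20 (SE, adjusted p = 0.259). Their mean ran from -0.25 to 0.13 in 10-week knockouts and from -0.40 to -0.22 in 2-week knockouts. Blood left in the ventricles was not measured, and its part in the rise of Hbb-bt was not tested. None of the 12 cardiomyocyte markers was called, and their mean ran from -0.19 to -0.02 in 10-week knockouts and from -0.06 to 0.07 in 2-week knockouts. Macrophage markers had a mean of 0.03 to 0.28 in 10-week knockouts and -0.20 to 0.14 in 2-week knockouts, with 0 of 15 called. Lymphocyte and granulocyte markers overlapped between the times, with 0 of 16 called and Cd3g at -0.48 ± 0.11 (SE, adjusted p = 0.088). Markers of adipocytes (median 0.21), nerve (0.13), atrium (0.04), skeletal muscle (0.04) and mesothelium and valve (-0.17) had 0 called members each.

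Genes of immune cells and secreted signals were called outside these lists. Clec4f, a lectin best known from Kupffer cells of the liver, read 3.22, 3.06, 1.69 and 2.23 in the 10-week knockouts, against -0.27, -0.01 and -0.21 in the 2-week knockouts, and rose by 2.71 ± 0.32 (SE, adjusted p = 0.0031). The difference between the lines for Clec4f was 2.86 ± 0.43 (SE, adjusted p = 0.114). Alox5, which starts leukotriene synthesis, read -0.09, 0.76, 0.81 and 0.88 on the arrays of 10-week knockouts and -1.03, -0.58 and -0.96 on those of 2-week knockouts, and rose by 1.45 ± 0.23 (SE, adjusted p = 0.0158). Cxcl14, a chemokine, rose by 1.45 ± 0.27 (SE, adjusted p = 0.0447), Egf, the epidermal growth factor, by 1.70 ± 0.26 (SE, adjusted p = 0.0129), and Chgb, a protein of secretory granules, by 0.89 ± 0.15 (SE, adjusted p = 0.0236), with 0.20 and 1.58 from its 2 probes. Cd48, a surface protein of leukocytes, read 0.68, -0.12, -0.02 and -0.15 in the 10-week knockouts, against 1.43, 1.41 and 0.79 in the 2-week knockouts. It fell by 1.11 ± 0.21 (SE, adjusted p = 0.0477), and its 2 probes gave -2.20 and -0.02. Differences in flox controls were -0.15 for Clec4f, 0.71 for Alox5, 0.50 for Cxcl14, 0.37 for Egf, -0.07 for Chgb and -0.04 for Cd48. For Alox5 the difference between the lines was 0.74 ± 0.31 (SE, adjusted p = 0.702).

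A receptor and an enzyme of second messenger synthesis fell. Tbxa2r, the receptor of thromboxane, read -0.34, -0.28, -0.35 and -0.50 on the arrays of 10-week knockouts and 1.44, 1.71 and 1.57 on those of 2-week knockouts. The arrays lay close together within each group and far apart between them, and Tbxa2r fell by 1.94 ± 0.31 (SE, adjusted p = 0.0163). In flox controls it averaged 0.82 ± 0.77 at 10 weeks and -0.22 ± 0.25 at 2 weeks (SD, n = 4 each), so the controls differed the other way, by 1.04 ± 0.29 (SE). The difference between the lines was -2.98 ± 0.42 (SE, adjusted p = 0.0901), the lowest adjusted p of that contrast together with Gsta2. Adcy6, a main adenylyl cyclase of heart muscle, read -0.79, -0.76, -0.73 and -0.95 in the 10-week knockouts, against 0.18, 0.05 and 0.03 in the 2-week knockouts, and fell by 0.89 ± 0.14 (SE, adjusted p = 0.0163). Among 21 measured neurohormone receptors 0 were called and the median was -0.09, against 0.12 in flox controls.

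Potassium, sodium and pacemaker channels and connexins had a median of -0.18 over 25 genes, against -0.02 in flox controls, with 0 called. At an unadjusted p under 0.05, 3 were higher and 7 lower, against 5.19% and 6.00% of all genes. The list's mean was -0.41, -0.06, -0.05 and -0.10 on the arrays of 10-week knockouts and -0.13, 0.03 and -0.04 on those of 2-week knockouts. Replicate 1 of the 10-week knockouts stood below the rest, the other arrays overlapped between the times, and the list's median without that replicate was -0.04. Kcnj12, of the inward rectifier current, read -0.67, -1.26, -0.87 and -1.32 on the arrays of 10-week knockouts and -0.16, -0.14 and -0.17 on those of 2-week knockouts, with a difference of -0.87 ± 0.17 (SE, adjusted p = 0.0559). Kcnq1, of the slow delayed rectifier, differed by -0.61 ± 0.16 (SE, adjusted p = 0.137), Kcnj11, of the ATP-sensitive channel, by -0.69 ± 0.22 (SE, adjusted p = 0.26), and Kcnv2, a silent subunit that modifies other channels, by 2.43 ± 0.64 (SE, adjusted p = 0.14). Among other membrane proteins, Aqp8, an aquaporin, read 2.28, 1.87, 1.89 and 2.16 in the 10-week knockouts, against -0.72, -0.65 and 0.00 in the 2-week knockouts, and rose by 2.51 ± 0.40 (SE, adjusted p = 0.0163). Abcb9, a peptide transporter of lysosomes, rose by 0.72 ± 0.12 (SE, adjusted p = 0.0211). Differences in flox controls were 0.88 ± 0.37 for Aqp8 and 0.35 ± 0.11 for Abcb9 (SE). Between the lines the difference was 1.62 ± 0.55 for Aqp8 (SE, adjusted p = 0.591) and 0.37 ± 0.16 for Abcb9 (SE, adjusted p = 0.72).

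Smim5, a small membrane protein of little known function, had the second largest fall after Mxra8. It read -1.84, -2.66, -2.58 and -3.02 on the arrays of 10-week knockouts and 0.00, -0.55 and -0.11 on those of 2-week knockouts, and fell by 2.30 ± 0.26 (SE, adjusted p = 0.00286). Fbxw7, the substrate receptor of a ubiquitin ligase that degrades Myc, SREBP and other factors, read -0.81, -1.57, -1.52 and -1.80 in the 10-week knockouts, against 0.02, 0.30 and 0.02 in the 2-week knockouts, and fell by 1.54 ± 0.21 (SE, adjusted p = 0.00747). Its 2 probes gave -2.34 and -0.74. Mpped2, a metallophosphodiesterase, read -1.39, -1.27, -1.24 and -1.10 on the arrays of 10-week knockouts and -0.10, -0.17 and -0.16 on those of 2-week knockouts, with a fall of 1.11 ± 0.13 (SE, adjusted p = 0.00286). Differences in flox controls were -0.58 ± 0.24 for Smim5, 0.21 ± 0.19 for Fbxw7 and -0.18 ± 0.12 for Mpped2 (SE). For the difference between the lines the adjusted p was 0.224 for Smim5, 0.147 for Fbxw7 and 0.166 for Mpped2. RNA of Myc differed by 1.13 ± 0.28 (SE, adjusted p = 0.12), with 0.36, 1.0 and 2.03 from its 3 probes. A link between Myc RNA and the fall of Fbxw7 was not tested.

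Among the other falls, Zbtb38, which binds methylated DNA, fell by 2.15 ± 0.42 (SE, adjusted p = 0.0482), and its difference in flox controls was -1.40 ± 0.38 (SE). Zkscan4 fell by 1.43 ± 0.24 (SE, adjusted p = 0.0225), Zbtb43 by 1.41 ± 0.24 (SE, adjusted p = 0.0236), Creb3l2, a factor held in the endoplasmic reticulum, by 1.19 ± 0.22 (SE, adjusted p = 0.0403), and Jund, an AP-1 subunit, by 0.48 ± 0.09 (SE, adjusted p = 0.0494). Zfp395, Zfp64 and Zfp768 fell by 0.94, 0.68 and 0.63 on the log2 scale. Jun, another AP-1 subunit and one of 27 immediate early genes measured, differed by 0.77 ± 0.15 (SE, adjusted p = 0.0577). That list had a median of 0.10, against -0.10 in flox controls, with Jund as its called member, and it was -0.04 without replicate 2 of the 10-week knockouts.

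The remaining falls were Cep57, a centrosome protein, at -1.85 ± 0.33 (SE, adjusted p = 0.0266), Ttc30b, of intraflagellar transport, at -1.56 ± 0.27 (SE, adjusted p = 0.0225), and Filip1, a filamin-binding protein, at -1.25 ± 0.24 (SE, adjusted p = 0.0447). Further ones were Ccdc69 (-1.17), Lrrc3b (-1.12), Tmem178 (-1.08), Nosip, a partner of nitric oxide synthase (-1.06), Lysmd1 (-0.93), Plekhh3 (-0.83), Fam131a (-0.81) and Ubald2 (-0.57), all as log2 differences. The probes of some of these genes lay far apart: Ccdc69 gave -2.21 and -0.13, Nosip -2.35 and 0.23, Zfp395 -1.93 and 0.06, and the 3 probes of Lysmd1 ran from -1.63 to 0.02.

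The remaining rises were Wfdc3, of the WAP protease inhibitor family, at 2.75 ± 0.46 (SE, adjusted p = 0.0211), and Dus2, which modifies tRNA, at 1.66 ± 0.24 (SE, adjusted p = 0.0101). Gadd45a, a growth arrest gene induced by stress and ATF4, read 0.35, 0.66, 0.46 and 0.51 in the 10-week knockouts, against -0.34, -0.39 and -0.73 in the 2-week knockouts, and rose by 0.98 ± 0.13 (SE, adjusted p = 0.00564). It was the called member among 21 p53 targets and growth arrest genes, whose median was -0.03. Rpl22l1, a paralogue of a ribosomal protein, rose by 0.83 ± 0.12 (SE, adjusted p = 0.00993). Smaller ones were Thumpd3 (1.04), Ptp4a1, a phosphatase (0.95), Tenm2, a teneurin (0.90), Pip5k1c, a phosphoinositide kinase (0.82), Dhx32, a helicase (0.78), Cdpf1 (0.75) and Ftl2-ps, a ferritin light chain pseudogene whose probe may read the ferritin gene (0.70), all as log2 differences. Another 4 called genes have clone or model names.

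Of the protein synthesis lists, cytosolic ribosomal proteins had a median of 0.14 over 42 genes, against -0.09 in flox controls, with 0 called, 10 higher and 0 lower at an unadjusted p under 0.05. Rps2 differed by 0.41 ± 0.11 (SE, adjusted p = 0.147) and Rpl37 by 0.31 ± 0.09 (SE, adjusted p = 0.177). Mitochondrial ribosomal proteins had a median of 0.12 over 41 genes, against 0.02 in flox controls, with 4 higher and Mrps10 at 0.66 ± 0.13 (SE, adjusted p = 0.0577). The 31 proteasome subunits had a median of 0.10, against -0.02 in flox controls. In knockouts 26 lay above 0 and 3 were higher at an unadjusted p under 0.05, against 49.0% and 5.19% of all genes. The 42 mTOR pathway components, sestrins and 4E-BPs had a median of 0.04 with 0 called, 4 higher and 4 lower at an unadjusted p under 0.05. Sesn1, a brake on mTOR complex 1, read -0.83, -1.16, -1.33 and -1.61 on the arrays of 10-week knockouts and -0.02, 0.48 and -0.18 on those of 2-week knockouts, with a difference of -1.32 ± 0.34 (SE, adjusted p = 0.134), and Prkaa1, a catalytic subunit of AMP-activated kinase, differed by -0.58 ± 0.18 (SE, adjusted p = 0.233). Chaperones of the endoplasmic reticulum had a median of -0.04 over 25 genes, the same as in flox controls, and 0 called. The lists of insulin and IGF signalling (median -0.16 over 22 genes), the circadian clock (-0.06 over 19), mitochondrial carriers (-0.04 over 22), ketone body and branched-chain amino acid catabolism (0.01 over 23) and interferon and complement genes (0.11 over 30) had 0 called members each. Cell cycle genes had a median of -0.14 over 39 genes with 0 called, and Mki67 and Prc1 differed by -0.68 ± 0.27 (SE, adjusted p = 0.375) and -1.56 ± 0.57 (SE, adjusted p = 0.326).

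For the difference between the time effects, the genes of smallest p were Gsta2, Clec4f, Prss22, Adssl1 and Fabp3 among those more positive in knockouts and Tbxa2r, Fbxw7, Mpped2, Nosip and Wrap73 among those more negative. Prss22, a serine protease, read 0.59, 0.92, 0.77 and 1.5 in the 10-week knockouts, against -0.50, -0.62 and 0.00 in the 2-week knockouts. It averaged -0.64 ± 0.28 at 10 weeks and 0.65 ± 0.60 at 2 weeks in flox controls (SD, n = 4 each). Its difference between the lines was 2.61 ± 0.42 (SE, adjusted p = 0.141). Wrap73 differed by -0.66 in knockouts and 0.38 in flox controls, with an adjusted p of 0.172 for the difference, and its 2 probes gave -1.69 and 0.38 in knockouts.

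The calls differ in how far they rest on single arrays. When each of the 15 arrays was left out in turn, 25 of the 76 genes (32.9%) were called every time. They include Gsta2, Gsta1, Nmrk2, Chac1, Mthfd2, Clec4f, Asns, Fgf21, Srebf1, Fabp3, Adssl1, Abra, Gadd45a and Hagh among the rises, and Smim5, Emilin2, Fbxw7, Ccn2, Mpped2 and Fam131a as all 6 falls. Slc7a5 was called in 10 of the 15 fits, Upb1 in 9, Hbb-bt and Zbtb38 in 2 and Jund in 1, and 13 genes in 3 or fewer. Without replicate 2 of the 10-week knockouts 41 genes were called, and without replicate 2 of the 2-week knockouts 49.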

How the data were processed

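The authors deposited 1 value table for the series, whose log2 ratios the labels do not describe further. Amplified RNA was made from 500 ng of each RNA, per the labels' protocols, with Cy-5 for hearts and Cy-3 for the reference. How arrays were scanned, background-corrected and scaled is not given in the sources used here. Probes were joined to symbols through the platform annotation: of 41267 probes, 32664 carried 1 symbol, 45 several, 8465 none, and 93 were control spots. Values were averaged over the probes of a symbol, which gave 19532 genes. All 15 arrays entered 1 fit of 4 group means with lmFit and eBayes in limma 3.58.1 (R 4.3.3), with 11 residual and 2.07 prior degrees of freedom. Tests were two-sided, with Benjamini-Hochberg adjustment over all 19532 genes of a contrast, and genes were called at an adjusted p under 0.05. The fit was tested on simulated data. Lists and motifs were counted in Python.

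The 15 largest called differences in each direction were named by rule, as were up to 4 members of each list by smallest p and up to 5 genes in each direction for the difference between lines. The other called genes, Pdk4 and Myh7 were named after their values were seen. Members, 34 gene lists and 12 marker lists were chosen with earlier results of these data known, and so were the tests. List genes were matched by symbol or RefSeq synonym, and list counts carry no test. Replicate numbers did not pair the knockout arrays: deviations of same-numbered arrays correlated at -0.023, 0.012 and -0.021. Scan dates were not used here, so batches were not tested. The number of arrays limits the precision.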

Additional observations from a re-analysis of the deposited data

Results flagged for a closer look

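The control spots AT_nX_3 and AT_nX_5, which no comparison used, separated the lines. AT_nX_3 had a median of 8.02 in 10-week knockouts and 8.21 in 2-week knockouts, and AT_nX_5 of 6.30 in 10-week knockouts and 6.77 in 2-week knockouts, while the other control spots lay between -1.22 and 1.39 on all arrays. The sources used here do not say what these spots detect.

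Among 405 groups of 4 arrays for the named genes, 28 (6.91%) held an array far from the other 3 by Dixon's test, and chance gives about 1 in 20. In 10-week knockouts, replicate 1 stood apart for Alox5 (-0.09), Cd48 (0.68), Nars (0.24), Me1 (0.45) and Kcnq1 (-0.91), replicate 3 for Mxra8 (-0.11) and replicate 4 for Cep57 (-1.93). Among these, Alox5, Cd48, Mxra8 and Cep57 were called. In flox controls at 10 weeks, replicate 1 stood apart for Atf3 (0.06) and Zfp768 (0.10), replicate 2 for Wfdc3 (1.47), Myc (0.83), Ftl2-ps (-0.32), Col4a2 (-0.38) and Mki67 (-0.54), replicate 3 for Hif1a (0.00), Kcnj12 (0.34), Lrrc3b (-0.44) and Col8a2 (0.37), and replicate 4 for Agpat3 (-0.08), Prkaa1 (-0.22) and Kcnq1 (0.59). In flox controls at 2 weeks, replicate 1 stood apart for Tenm2 (-0.07), Hspe1 (-0.02) and Nosip (0.05), replicate 3 for Thumpd3 (-0.14) and Ldha (-0.06), and replicate 4 for Atf5 (-0.29) and Fabp3 (0.04).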

How the results depend on the processing

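The count of called genes in knockouts was 76 and stayed between 60 and 93 with arrays centred on their medians, probe medians, the most variable probe, array weights, robust moderation or a 1.5-fold minimum, and it was 50 after quantile normalisation. Probes tested singly gave 155 called probes. Leaving out 1 array at a time gave 41 to 89. With the knockout arrays fitted alone it was 12, and adding the replicate number as a block to that fit left 0 genes (1516 at an unadjusted p under 0.05). The replicate block as a random term over all arrays gave 78. The numbers are shared labels and not a pairing, so a call lost under the block is no weaker effect. In flox controls leave-outs gave 0 to 1 called genes. For the difference between lines they gave 0 to 4, and the most variable probe and single probes gave 1 each, Fgf21. The most variable probe was picked by its spread over the arrays, so its call of Fgf21 is no fair test.

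Among 1800 values of the 72 named called genes under these alternatives, 1251 kept their call and 549 did not, and none changed sign. Of the other named genes, Postn changed sign, with 0.02 from its most variable probe, and 34 of 1575 values were called. The median of the amino acid list stayed between 0.14 and 0.26, of fatty acid oxidation between 0.23 and 0.27, of glutathione genes between 0.20 and 0.27, of tRNA synthetases between 0.20 and 0.40, of collagens between -0.50 and -0.19 and of fibroblast markers between -0.61 and -0.20. For 17 of the 46 lists the median changed sign in at least 1 alternative. Among these 17, immediate early genes ran from -0.04 to 0.15, glycolysis from -0.13 to 0.02 and genes that mark hypertrophy from -0.10 to 0.15. NAD synthesis enzymes and sirtuins ran from -0.03 to 0.13 and chaperones of the endoplasmic reticulum from -0.12 to 0.04. Wide ranges without a change of sign were those of hypoxia targets (-0.21 to -0.03) and channels (-0.23 to -0.04). Red blood cell markers (0.01 to 0.46) and adipocyte markers (0.02 to 0.35) also kept their sign. Of 460 list medians 36 moved by more than the spread between arrays. The cause of these shifts was not tested.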

Other observations

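Fitted without the flox controls, the 7 knockout arrays gave 12 called genes, of which 11 were among the 76 called with all arrays. The higher ones were Chac1, Gsta2, Gsta1, Aqp8, Upb1, Dus2, Hsph1 and Pdk4, and the lower ones were Tbxa2r, Zkscan4, Mpped2 and Lysmd1. Pdk4 was the gene not called with all arrays, and its values were 1.59 ± 0.11 in 10-week knockouts (SD, n = 4), 0.01 ± 0.10 in 2-week knockouts (SD, n = 3) and -0.68 ± 0.72 in flox controls at 10 weeks, where its spread was much wider.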
